A study of Mus musculus with 16 samples.

Results

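Liver tumours with a mutation in Ctnnb1, the gene of beta-catenin, were compared with liver tumours with a mutation in Ha-ras for the microRNAs (miRNAs) they contain. The members were the samples whose titles name such a tumour: 10 of the 16 samples of the series, 7 Ctnnb1 tumours and 3 Ha-ras tumours, each with its own one-colour array. All came from male C3H/HeJ mice, whose tumours had been started with 1 injection of diethylnitrosamine (DEN) at 10 or 90 µg per g when they were 2 or 6 weeks old. The Ctnnb1 tumours came from mice given phenobarbital and the Ha-ras tumours from mice given none, for 27 weeks per the labels, 28 to 36 weeks at 0.05% of the diet per the design text, and 28 days in drinking water per the treatment protocol. The sources do not tie a DEN dose or age to a sample. Genotype and phenobarbital differ together between the groups, so the part of each cannot be told apart in any difference given here. The other 6 samples are non-tumour livers, 3 from mice on phenobarbital (phenobarbital controls) and 3 from mice without it (untreated controls). They were left out of the main fit and appear as levels measured the same way, except in the comparison with own-arm controls near the end and in an alternative fit over all 16 arrays.

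Beta-catenin is the effector of Wnt signalling, and an activating mutation in Ctnnb1 keeps it active. In the nucleus it drives the gene programme that normal liver shows around the central vein. Ha-ras is a small GTPase, and its mutation keeps the MAP kinase cascade active and, through it, the transcription factor AP-1. Phenobarbital is a tumour promoter that activates the nuclear receptor CAR and favours the outgrowth of Ctnnb1-mutated liver cells in mice. A miRNA is a short RNA that pairs with messenger RNAs mainly through its seed, bases 2 to 8, and lowers their stability or translation, so miRNAs with 1 seed can share targets. Both tumour types arise from hepatocytes, whose main miRNA is miR-122.

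The results turn on 4 sets of miRNAs, whose mature sequences (RefSeq, GRCm38.p6) are shown 5′ to 3′ with the seed in capitals. The first set was lower in the Ctnnb1 tumours, and its members have different seeds.
miR-146b: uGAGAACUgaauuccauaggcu
miR-31: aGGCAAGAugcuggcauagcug
miR-34a: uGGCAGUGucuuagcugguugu
Mature miR-146b lies at chr19:46342790-46342811 on the plus strand, miR-31 at chr4:88910614-88910635 on the minus strand and miR-34a at chr4:150068473-150068494 on the plus strand.

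The second set belongs to the imprinted Dlk1-Dio3 region of chromosome 12, where all 3 shown lie on the plus strand. It was seen in Ctnnb1 tumours and in no Ha-ras tumour. miR-494 of that region, left out of the set, was detected in both tumour types.
miR-127: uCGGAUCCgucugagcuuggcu
miR-136: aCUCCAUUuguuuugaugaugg
miR-379: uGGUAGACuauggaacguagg
These are at chr12:109592888-109592909, chr12:109595331-109595352 and chr12:109709065-109709085.

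The third set holds neighbours of the miR-23-27-24 clusters, shown because miR-23a passed as lower and miR-27b as higher in the Ctnnb1 tumours, while miR-27a, the close relative of miR-27b, did not pass. The 2 miR-27 sequences share the seed and differ by 1 of 21 bases, C19U, counted from the 5′ end of miR-27a.
miR-23a: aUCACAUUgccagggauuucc
miR-27a: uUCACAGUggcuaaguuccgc
miR-27b: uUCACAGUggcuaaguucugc
The cluster of miR-23a (chr8:84208563-84208583) and miR-27a (chr8:84208727-84208747) is on the plus strand, as is miR-27b (chr13:63300760-63300780).

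The fourth set, higher in the Ctnnb1 tumours, shares 1 seed.
miR-15a: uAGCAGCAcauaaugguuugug
miR-16: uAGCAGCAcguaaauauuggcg
Both lie on the minus strand of chromosome 14, miR-15a at chr14:61632075-61632096 and miR-16 at chr14:61631936-61631957, and miR-16 has another copy on chromosome 3 (chr3:69009918-69009939, plus strand).

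Levels are log2 of a probe's background-subtracted signal, scaled between arrays and raised to a floor of 4.76, averaged over the probes of a miRNA. A miRNA was called detected on an array where 1 or more of its probes was well above background. Of 566 mouse miRNAs on the array, the Ctnnb1 tumours had 95 to 117 detected and the Ha-ras tumours 83 to 100. The 75th percentile of detected probes before scaling was 449.7 to 874 in the Ctnnb1 tumours and 447.5 to 1188 in the Ha-ras tumours, replicate 1 of which was the brightest array. Correlations between arrays across the tested miRNAs were 0.937 to 0.988 within the Ctnnb1 tumours, 0.969 to 0.973 within the Ha-ras tumours and 0.892 to 0.955 between them. Slide 1 held all 7 Ctnnb1 tumours and Ha-ras replicate 1, and slide 2 held Ha-ras replicates 2 and 3. Any value with the slide as a block, or within slide 1, therefore rests on that 1 Ha-ras array, and both ways give the same difference.

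Of 89 miRNAs tested, 16 differed between the tumour types (18%; limma, adjusted p under 0.05), 10 of them higher in the Ctnnb1 tumours (11.2%) and 6 lower (6.74%). The 10 were miR-379, miR-136, miR-709, miR-223, miR-92a, miR-1224, miR-15a, miR-27b, miR-16 and miR-23b. The 6 were miR-146b, miR-34a, miR-31, miR-23a, miR-345-5p and miR-101b. At an unadjusted p under 0.05, 33 miRNAs differed, and the median difference of all 89 was 0.10. The groups did not overlap for 18 miRNAs (20.2%), with the Ctnnb1 tumours above for 13 (14.6%) and below for 5 (5.62%). Detection on all arrays of 1 group was enough to be tested, which favours such separation where the other group lies at the floor. The number of calls changed when a single array was left out, and leaving out a Ha-ras tumour also leaves that group only 2 samples. For miR-136 the difference stayed at 1.25 without any 1 of the Ha-ras tumours, while its SE rose from 0.37 to 0.45. Without Ha-ras replicate 2, 2 miRNAs passed, without Ha-ras replicate 1, 4 passed, without Ctnnb1 replicate 4, 7 passed, and without Ctnnb1 replicate 2, 9 passed. miR-146b and miR-31 passed with each array left out in turn. All Ctnnb1 values of miR-146b lay at the floor, so its difference stayed at -3.72 without any 1 Ctnnb1 tumour. That of miR-31 was -1.27 without any 1 of the 6 Ctnnb1 tumours at the floor. These runs could therefore hardly change the result. Of the other 14 called miRNAs, all lost their call without Ha-ras replicate 2. All of them but miR-345-5p and miR-709 lost it without Ha-ras replicate 1. Without Ha-ras replicate 3, miR-379, miR-136, miR-27b, miR-23b, miR-101b and miR-223 did not pass. Without Ctnnb1 replicate 4, miR-379, miR-136, miR-92a, miR-23a, miR-27b, miR-23b, miR-101b, miR-223 and miR-16 did not pass. Without Ctnnb1 replicate 2, miR-1224, miR-136, miR-27b, miR-23b, miR-101b, miR-223 and miR-16 did not. Single calls were also lost without Ctnnb1 replicate 3 (miR-101b), 5 (miR-16), 6 (miR-101b and miR-16) or 7 (miR-223 and miR-16). With the slide as a block 3 miRNAs passed: miR-146b and miR-31 of the 16, and let-7e, which had not passed before. The other 14 of the 16 kept their sign but not their call (adjusted p from 0.0557 to 0.414). Within slide 1, 5 passed: those 3, miR-15a and miR-16. With every mouse probe, detected or not, used to scale the arrays, the median difference was -0.36 and the calls were 2 higher and 20 lower. The 75th percentile of all mouse probes was 2.88 to 5.94 before scaling on the tumour arrays, against 447.5 to 1188 for detected probes. It lies among undetected probes, so this alternative scales the arrays on signal near background. Under that scaling 14 of the 16 kept their sign, while miR-16 went from 0.55 to -0.03 and miR-23b from 0.42 to -0.17. Quantile scaling gave 7 higher and 12 lower, and the authors' deposited values 10 higher and 10 lower.

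**Figure D1:**
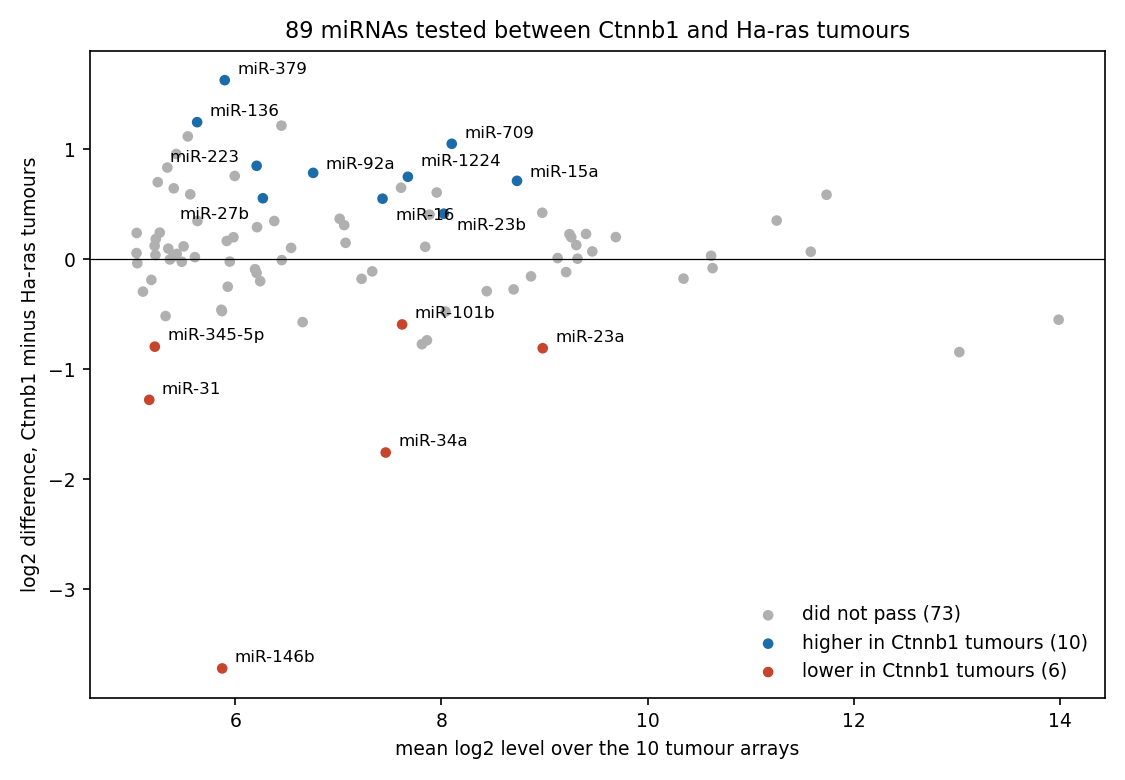
Each point is 1 of the 89 miRNAs tested. The x axis is its mean log2 level over the 10 tumour arrays and the y axis its log2 difference, Ctnnb1 minus Ha-ras tumours, with the 10 higher miRNAs in blue, the 6 lower in red and the other 73 in grey. miR-146b is lowest at -3.72, and miR-379 highest at 1.63.

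miR-146b, a miRNA induced by NF-kappaB signalling that dampens innate immune signalling, was abundant in the Ha-ras tumours and was detected in none of the Ctnnb1 tumours. Its levels in Ha-ras replicates 1 to 3 were 8.40, 9.26 and 7.78, and all 7 Ctnnb1 tumours were at the floor of 4.76. The groups did not overlap. The Ctnnb1 SD of 0 is set by the floor, so the SE and p-values below hold no measured Ctnnb1 spread. The Ha-ras mean of 8.48 ± 0.74 (SD, n = 3) was at least 11.6-fold above the bound for the Ctnnb1 tumours. On each array that bound is the lowest detected signal or, where higher, the floor. The fitted difference, whose size depends on the floor, was -3.72 (SE 0.24, adjusted p = 4.55e-07), and with the slide as a block it was -3.65 (SE 0.38, adjusted p = 0.000151). miR-146b was not detected on any phenobarbital control and was detected on 2 of 3 untreated controls, at 4.78, 4.91 and 5.09. Both of its probes were detected on all Ha-ras arrays and on no Ctnnb1 array. Its relative miR-146a, also an NF-kappaB target, had a mean of 5.41 ± 0.25 (SD, n = 7) in the Ctnnb1 and 5.38 ± 0.39 (SD, n = 3) in the Ha-ras tumours, a difference of 0.03 with a 95% interval from -0.40 to 0.45. miR-155, another NF-kappaB target and a miRNA of activated leukocytes, was detected on no tumour array.

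miR-31, a miRNA induced by Ras and MAP kinase signalling in several epithelia, was lower in the Ctnnb1 tumours as well. The Ha-ras tumours were at 6.12, 6.08 and 5.98. Of the Ctnnb1 tumours 6 were at the floor and replicate 1, the only one with miR-31 detected, was at 4.94, so the groups lay apart. The difference was -1.28 (SE 0.10, adjusted p = 3.54e-06), and its size depends on the floor, at which most Ctnnb1 values lie. With the slide as a block it was -1.34 (adjusted p = 0.000688). The opposite strand of the same hairpin, miR-31*, was detected on 2 Ha-ras tumours and on no Ctnnb1 tumour. In the controls miR-31 was detected on 1 of 3 phenobarbital and 2 of 3 untreated livers.

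Of the list of miRNAs known to follow Ras, MAP kinase and AP-1 activity, 6 were on the array and 3 were tested. 1 passed as lower in the Ctnnb1 tumours, where 6.74% of all tested did, and none as higher. The list's median difference was -0.84 against 0.10 for all tested. The other tested members were miR-21 and miR-221. miR-21, an AP-1 target raised in many cancers, had Ctnnb1 levels from 12.25 to 13.59 with a median of 12.58, and Ha-ras levels of 13.46, 13.75 and 13.62. Ctnnb1 replicate 7 lay among the Ha-ras tumours and the other 6 Ctnnb1 tumours below them. Its difference of -0.84 had an adjusted p = 0.0501. miR-221, which lowers the cell cycle inhibitor p27, had a difference of -0.46 (adjusted p = 0.134), and its cluster partner miR-222 was detected on no tumour.

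miR-34a, a direct target of p53 that slows the cell cycle, was 3.38-fold higher in the Ha-ras than in the Ctnnb1 tumours. The Ha-ras tumours were at 8.82, 9.05 and 8.19. The Ctnnb1 tumours were spread from 6.06 to 8.27 with a median of 7.02. Ctnnb1 replicate 6, at 8.27, reached above Ha-ras replicate 3, so the groups overlapped by 1 tumour. The difference was -1.76 (SE 0.41, adjusted p = 0.0188), and -1.89 with the slide as a block (adjusted p = 0.122). It did not pass without Ha-ras replicate 1 or without Ha-ras replicate 2. The controls had means of 6.66 ± 0.34 (SD, n = 3) with phenobarbital and 6.76 ± 0.90 (SD, n = 3) without, nearer to the Ctnnb1 mean of 6.93 ± 0.75 (SD, n = 7) than to the Ha-ras mean of 8.69 ± 0.45 (SD, n = 3). The related miR-34b and miR-34c were detected on no array.

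miR-345-5p and miR-101b were the remaining lower miRNAs outside the miR-23 clusters. miR-345-5p had Ha-ras levels of 5.85, 5.83 and 5.66 and Ctnnb1 levels from the floor to 5.39, with no overlap, and a difference of -0.79 (adjusted p = 0.00616). Its brighter probe differed by -1.59. Its second probe was at the floor in both groups, although it was detected on 2 Ha-ras arrays and on no Ctnnb1 array. miR-101b, whose family represses the histone methyltransferase Ezh2, had Ha-ras levels of 7.86, 8.27 and 7.97 and Ctnnb1 levels from 6.92 to 7.71 with a median of 7.52, also without overlap. The difference was -0.59 (adjusted p = 0.0418). miR-101a, its relative, differed by -0.18 (adjusted p = 0.600). In the untreated controls miR-101b averaged 7.96 ± 0.09 (SD, n = 3) and in the phenobarbital controls 7.51 ± 0.11 (SD, n = 3), so the control livers of the arms differed in the same direction as the tumours.

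**Figure D2:**
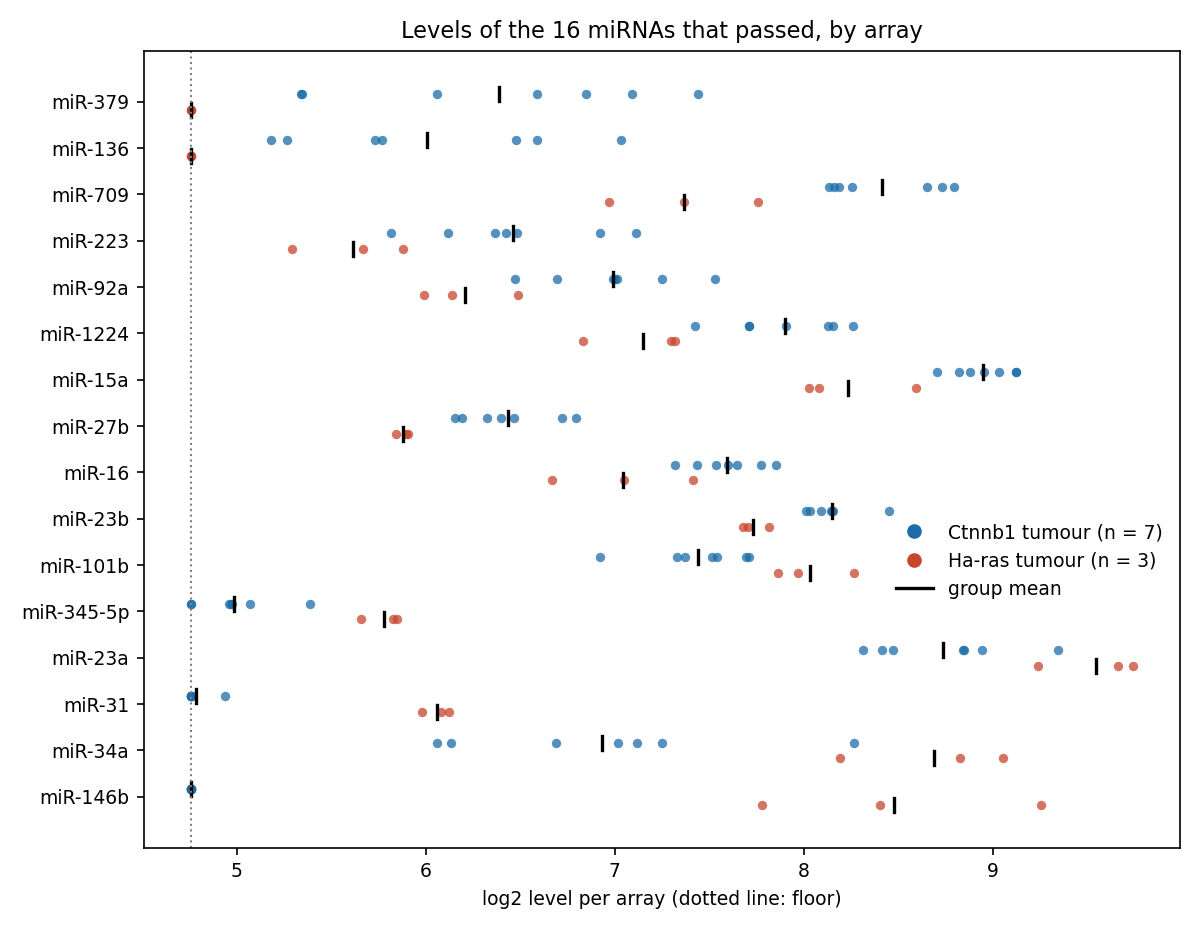
The x axis is the log2 level of each of the 16 miRNAs that passed, with 1 point per array, blue for the 7 Ctnnb1 and red for the 3 Ha-ras tumours, and a black bar at the group mean. The dotted line is the floor of 4.76, on which all 7 Ctnnb1 points of miR-146b and all 3 Ha-ras points of miR-379 and miR-136 lie.

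The Dlk1-Dio3 region is an imprinted domain whose maternally expressed RNA carries one of the largest miRNA clusters of mammals, active in the embryo and in placenta and mostly silent in adult liver. In the Ctnnb1 tumours 22 of its 68 miRNAs on the array were detected on 1 or more arrays, and in the Ha-ras tumours 0 were. miR-494 of the same region was left out of this count because it was erratic, from 5.02 to 8.57 among the Ha-ras tumours. It was detected on all 7 Ctnnb1 and all 3 Ha-ras tumours. Over all miRNAs, 43 of 566 were detected on a Ctnnb1 tumour and on no Ha-ras tumour (7.6%), and 22 of these 43 were of this cluster. Detection on 1 or more of 7 arrays is more easily met than on 1 or more of 3. All 6 miRNAs that were detected on all 7 Ctnnb1 tumours and on no Ha-ras tumour belonged to the cluster: miR-379, miR-136, miR-127, miR-299*, miR-376b and miR-377. Ha-ras replicate 1, the brightest array and on the slide of the Ctnnb1 tumours, had 0 of the 68 detected.

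miR-379 and miR-136 passed the test, and each has only a bound in the Ha-ras tumours. The adjusted p-values test the fitted difference from the floor and not the bound. miR-379 was at 5.34 to 7.44 in the Ctnnb1 tumours, with a median of 6.59 and a mean of 6.39 ± 0.83 (SD, n = 7). It was at least 2.73-fold higher there, with a fitted difference of 1.63 (adjusted p = 0.0322). miR-136 was at 5.18 to 7.03 with a median of 5.77 and a mean of 6.01 ± 0.71 (SD, n = 7). It was at least 2.09-fold higher, with a fitted difference of 1.25 (adjusted p = 0.0418). For both, all 7 Ctnnb1 tumours were above all 3 Ha-ras tumours. Both entered the test because all 7 Ctnnb1 arrays detected them, and all Ha-ras values lay at the floor, so this separation adds no support. The other 4 did not pass. Their bounds were at least 1.57-fold for miR-127, 1.91-fold for miR-299*, 1.43-fold for miR-377 and 1.71-fold for miR-376b. Their fitted differences were 0.84 for miR-127 (adjusted p = 0.0529) and 1.12 for miR-299* (adjusted p = 0.0534). They were 0.70 for miR-377 (adjusted p = 0.0691) and 0.96 for miR-376b (adjusted p = 0.101). With the slide as a block miR-379 had an adjusted p = 0.206 and miR-136 an adjusted p = 0.255. Both calls were lost without any 1 of the 3 Ha-ras tumours or without Ctnnb1 replicate 4, and that of miR-136 also without Ctnnb1 replicate 2.

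The Ctnnb1 tumours differed among themselves in these miRNAs, and largely alike for all 6. The number of cluster miRNAs detected was 9, 12, 22, 15, 12, 7 and 16 in Ctnnb1 replicates 1 to 7. Replicate 3 was highest for all 6 miRNAs named above, and replicates 1 and 6 were among the lowest 3 for all 6. Over all miRNAs, 113 were detected on replicate 1, 111 on replicate 6 and 95 on replicate 5. The hairpins of the 22 detected members span 156.71 kb, chr12:109585789-109742498.

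Some of these miRNAs were also detected in non-tumour liver under phenobarbital. Of the 68, 8, 1 and 14 were detected on phenobarbital controls 4, 5 and 6, with 14 on at least 1 of them, and 0 on the untreated controls. miR-379 was at 6.00, 4.76 and 6.43 in those phenobarbital controls and at the floor in all untreated controls. The Ctnnb1 minus phenobarbital control difference of miR-379 was 0.66 and that of miR-136 was 0.30. Neither passed in the comparison with own-arm controls (adjusted p = 0.615 and 0.754), which for these miRNAs holds only that difference, since the Ha-ras tumours and untreated controls were all at the floor.

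**Figure D3:**
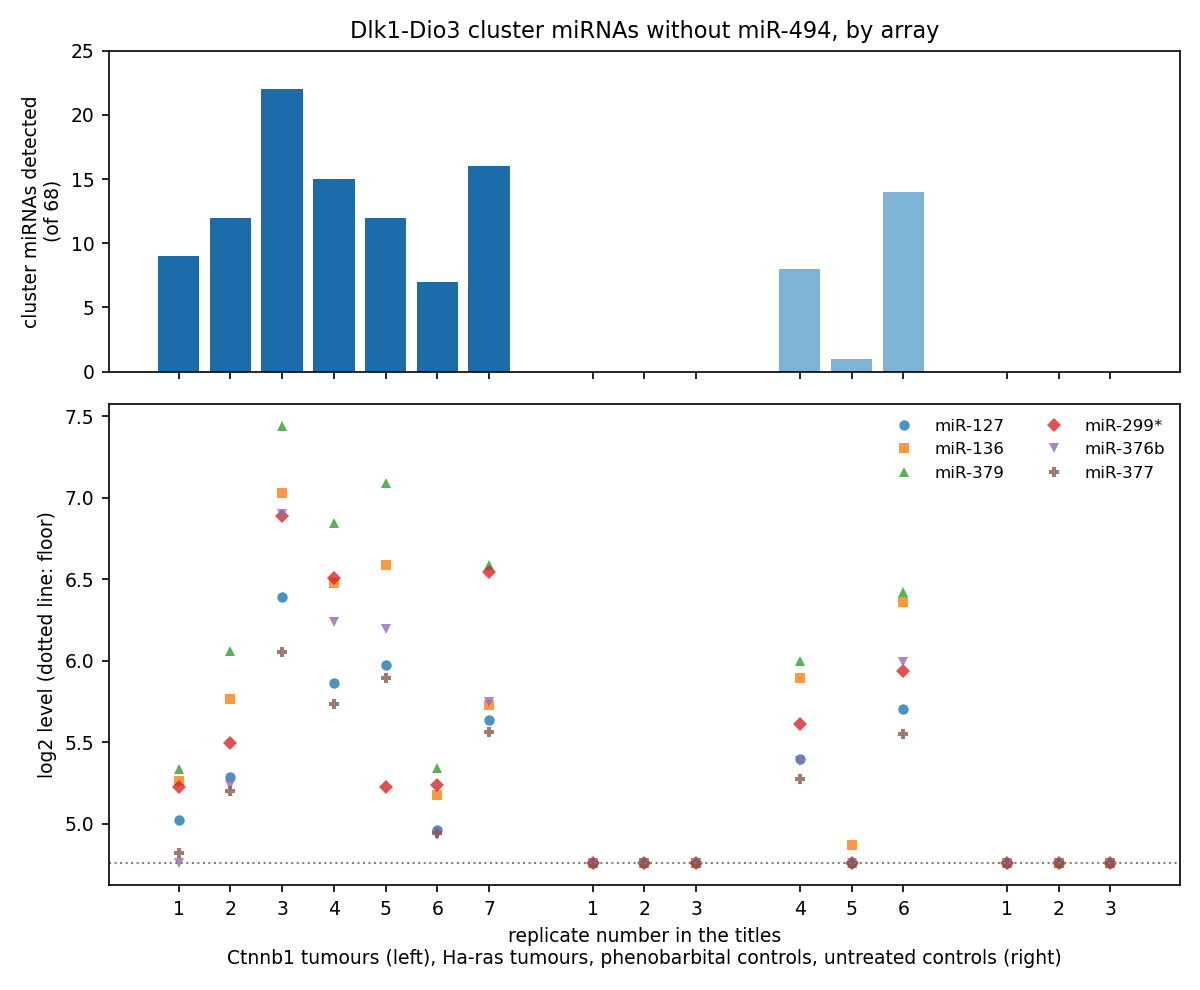
The upper panel shows how many of 68 Dlk1-Dio3 miRNAs were detected on each array, and the lower panel shows the log2 levels of the 6 detected on all Ctnnb1 tumours. From left to right are the 7 Ctnnb1 tumours, 3 Ha-ras tumours, 3 phenobarbital controls and 3 untreated controls. The counts are 7 to 22 in the Ctnnb1 tumours, 1 to 14 in the phenobarbital controls and 0 in the other groups, where all 6 miRNAs lie on the floor of 4.76.

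Calls in the related clusters that hold miR-23, miR-27 and miR-24, which in liver regulate lipid metabolism and TGF-beta signalling genes, ran in opposite directions. Of the cluster of miR-23a and miR-27a, miR-23a passed as lower in the Ctnnb1 tumours. It had Ha-ras levels of 9.74, 9.66 and 9.24 and Ctnnb1 levels from 8.31 to 9.34 with a median of 8.84. Ctnnb1 replicate 7 overlapped the lowest Ha-ras tumour, and the difference was -0.81 (SE 0.22, adjusted p = 0.0323). miR-27a differed by -0.77 (adjusted p = 0.0529). Both miR-23b and miR-27b were higher in the Ctnnb1 tumours, with no overlap for either. miR-27b had Ha-ras levels of 5.89, 5.84 and 5.90 and Ctnnb1 levels from 6.15 to 6.80 with a median of 6.40, a difference of 0.56 (SE 0.16, adjusted p = 0.0374). Its brighter probe differed by 0.72. Its second probe was at the floor in the Ha-ras tumours, which narrows the spread of that group. miR-23b had Ha-ras levels of 7.81, 7.68 and 7.70 and Ctnnb1 levels from 8.01 to 8.45 with a median of 8.14, a difference of 0.42 (adjusted p = 0.0418). With every probe used for the scaling miR-23b turned to -0.17. miR-24, which both clusters encode, differed by -0.27 (adjusted p = 0.263). Relatives that differ by a single base, such as miR-27a and miR-27b above, can cross-hybridise, and how far they did was not tested.

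miR-15a and miR-16, which share a seed and repress Bcl2 and cyclins, were higher in the Ctnnb1 tumours. miR-15a was at 8.03, 8.08 and 8.59 in the Ha-ras tumours and from 8.71 to 9.12 in the Ctnnb1 tumours with a median of 8.95, without overlap. The difference was 0.71 (SE 0.15, adjusted p = 0.0123). It was 0.92 with the slide as a block, where it did not pass (adjusted p = 0.0557), and within slide 1, where it did (adjusted p = 0.0254). miR-16 was at 6.67, 7.05 and 7.41 in the Ha-ras tumours and from 7.32 to 7.85 in the Ctnnb1 tumours with a median of 7.60. Ha-ras replicate 3 lay above the lowest Ctnnb1 tumour, and the difference was 0.55 (SE 0.17, adjusted p = 0.0463). It was 0.93 with the slide as a block, where it did not pass (adjusted p = 0.0557), and within slide 1, where it did (adjusted p = 0.0394). With every probe used for the scaling miR-16 was at -0.03. Of 12 members of the miR-15-16 list on the array 5 were tested. Of these, 2 were higher, where 11.2% of all tested were, and none was lower. Their median was 0.41, or -0.18 with every probe used for the scaling. miR-15b differed by 0.41 (adjusted p = 0.299), and miR-195 and miR-497, which share the seed, by 0.12 and 0.10.

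Of the growth-promoting miR-17-92 cluster and its paralogs 8 of 21 were tested. miR-92a was higher in the Ctnnb1 tumours and none was lower, where 11.2% of all tested miRNAs were higher and 6.74% lower. The list's median was 0.30, or -0.16 with every probe used for the scaling. miR-92a was at 5.99, 6.14 and 6.49 in the Ha-ras tumours and from 6.47 to 7.53 in the Ctnnb1 tumours with a median of 6.999. Ctnnb1 replicate 2, at 6.47, lay just under Ha-ras replicate 3. The difference was 0.79 (SE 0.21, adjusted p = 0.0323). Its cluster neighbour miR-19b differed by 0.65 (adjusted p = 0.0550) and miR-19a by 0.65 (adjusted p = 0.0738).

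miR-709, miR-1224 and miR-223 made up the rest of the higher miRNAs. miR-709 was at 7.37, 6.97 and 7.76 in the Ha-ras tumours and from 8.13 to 8.80 in the Ctnnb1 tumours with a median of 8.25, without overlap (difference 1.05, SE 0.21, adjusted p = 0.00876). miR-1224, which is spliced out as an intron, was at 6.83, 7.32 and 7.30 in the Ha-ras tumours and from 7.43 to 8.26 in the Ctnnb1 tumours with a median of 7.91, also without overlap (difference 0.75, adjusted p = 0.0322). Of its 4 probes 3 differed by 0.87 to 1.17, and the fourth was at the floor in both groups. miR-223, a miRNA of neutrophils and macrophages, was at 5.67, 5.29 and 5.88 in the Ha-ras tumours and from 5.81 to 7.11 in the Ctnnb1 tumours with a median of 6.42, with an overlap of 1 tumour (difference 0.85, adjusted p = 0.0420). With the slide as a block none of the 3 passed (adjusted p = 0.122 for miR-709, 0.0622 for miR-1224 and 0.308 for miR-223).

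miR-223 belongs to the list of leukocyte miRNAs, of which 3 of 5 were detected on a tumour array and miR-150, a lymphocyte miRNA, was at the floor on all. The summed log2 level of the list was 8.39 to 9.28 in the Ctnnb1 and 7.90 to 9.03 in the Ha-ras tumours. miR-142-3p, expressed in all blood cell lineages, differed by 0.61 (adjusted p = 0.246). In a piece of tissue, fewer leukocytes and less RNA per leukocyte cannot be told apart, and the part of leukocytes in the miR-223 difference was not tested.

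None of the tested markers of hepatocytes, endothelium, mesenchyme or erythroid cells passed in either direction in the main fit. miR-122, miR-194 and miR-199a-3p each passed in some of the alternatives. The hepatocyte list (3 of 3 tested) had summed levels of 13.48 to 14.43 in the Ctnnb1 and 14.24 to 14.68 in the Ha-ras tumours. miR-122, the main hepatocyte miRNA, was from 13.29 to 14.30 with a median of 13.86 in the Ctnnb1 tumours. It was at 14.11, 14.42 and 14.58 in the Ha-ras tumours, a difference of -0.55 (adjusted p = 0.0878). The difference was -1.13 with every probe used for the scaling, where it passed (adjusted p = 0.00651), and -0.04 with quantile scaling. It also passed with all 16 arrays in the fit (adjusted p = 0.0397) and without Ctnnb1 replicate 5 (adjusted p = 0.0472). miR-192 and miR-194, of liver and gut epithelium, differed by 0.03 and -0.48 (adjusted p = 0.914 and 0.208). The endothelial miR-126-3p differed by 0.23 (adjusted p = 0.299), and the endothelial sum was 9.30 to 9.88 in the Ctnnb1 and 9.13 to 9.53 in the Ha-ras tumours. The erythroid miR-451 differed by 0.07 and miR-144 by 0.15, with erythroid sums of 11.06 to 12.29 and 10.68 to 12.51. In the mesenchymal list, of which 2 of 8 were detected, miR-199a-3p was at 5.19, 5.05 and 5.21 in the Ha-ras tumours and from 5.21 to 6.19 in the Ctnnb1 tumours with a median of 5.72 (difference 0.59, adjusted p = 0.0544). It was higher in the control livers of both arms, at 6.87 ± 0.12 (SD, n = 3) with phenobarbital and 6.70 ± 0.43 (SD, n = 3) without. Its list's summed level was 7.82 to 8.03 in the Ctnnb1 and 7.80 to 7.82 in the Ha-ras tumours. In the list of biliary and other epithelial miRNAs, 2 of 9 were detected on a tumour array and none was tested. Its sums were 7.93 to 7.96 in the Ctnnb1 and 7.93 to 7.94 in the Ha-ras tumours. Members at the floor enter a sum with the floor value, so the mesenchymal and biliary sums consist mostly of floor values.

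Several families had no member that passed, which in lists this small is read against the 18% that passed among all tested. Of the let-7 family, which represses Ras and Myc messages, 0 of 9 tested passed, with a median difference of 0.01. let-7b had the smallest p, with a difference of 0.23 (adjusted p = 0.245). let-7e was at 7.29, 5.85 and 5.47 in the Ha-ras tumours, so that Ha-ras replicate 1 stood apart, and from 5.43 to 6.10 in the Ctnnb1 tumours with a median of 5.71. Its difference was -0.47 (adjusted p = 0.318), and with the slide as a block, where the Ha-ras group is replicate 1 alone, it was -1.56 (adjusted p = 0.00475). Of the miR-30 family 0 of 6 passed, with a median of -0.21. miR-30a, abundant in liver, was from 7.22 to 8.40 in the Ctnnb1 tumours with a median of 7.48 and at 8.21, 8.29 and 8.63 in the Ha-ras tumours (difference -0.74, adjusted p = 0.0503), and miR-30c differed by -0.57 (adjusted p = 0.0529). Of the miR-29 family, which represses collagens, 0 of 3 passed. The difference was 0.42 for miR-29c (adjusted p = 0.0878), 0.07 for miR-29a and 0.01 for miR-29b.

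Other lists gave no call either. miR-22, a miRNA known to target the histone deacetylase Hdac4, was at 11.06, 11.26 and 11.65 in the Ha-ras tumours and from 11.66 to 12.49 in the Ctnnb1 tumours with a median of 11.79, without overlap. Its difference was 0.59 (adjusted p = 0.0501). Differences were -0.29 and 0.20 for miR-26a and miR-26b, -0.20 and -0.11 for miR-103 and miR-107, and 0.29 and 0.31 for miR-193 and miR-365. They were 0.20 and -0.19 for miR-148a and miR-148b, -0.12 and 0.06 for miR-130a and miR-301a, and -0.02 and -0.01 for miR-99a and miR-125b-5p. miR-10a, encoded in a Hox cluster, differed by 0.35 (adjusted p = 0.179) and miR-33, from an intron of a sterol regulator gene, by 0.24 (adjusted p = 0.263). miR-96 was detected on 4 of 7 Ctnnb1 and 3 of 3 Ha-ras tumours, with a difference of -0.52 (adjusted p = 0.263), and its cluster partner miR-183 was detected on 2 Ha-ras and no Ctnnb1 tumours. miR-375 and miR-483, miRNAs tied to beta-catenin, and the miR-181 family were detected on no tumour.

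Each tumour group was then set against the control livers of its own arm and the 2 differences compared. Of 89 miRNAs 2 passed (2.25%), miR-146b and miR-31. For miR-146b, the Ha-ras tumours were 3.55 above their untreated controls, and the Ctnnb1 tumours and phenobarbital controls were all at the floor, which gave a difference of differences of -3.55 (SE 0.32, adjusted p = 9.92e-07). For miR-31, the Ha-ras tumours were 0.96 above and the Ctnnb1 tumours differed by -0.10 from their controls, which gave -1.06 (SE 0.16, adjusted p = 0.000485). For miR-34a the Ha-ras tumours were 1.93 above and the Ctnnb1 tumours 0.27 above their controls (difference -1.66, adjusted p = 0.205). For miR-27b the values were -0.60 and 0.18 (difference 0.78, adjusted p = 0.0701). Setting a tumour against its own controls takes out a measurable shift that phenobarbital gives to liver and tumour alike. A shift it gives to tumours alone stays in the difference. For miR-146b the floor hides any such shift in the phenobarbital arm, so -3.55 holds only the Ha-ras minus untreated control difference. For miR-31 most values of the phenobarbital arm lay at the floor as well. The control groups also lay on other slides than the Ctnnb1 tumours.

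**Figure D4:**
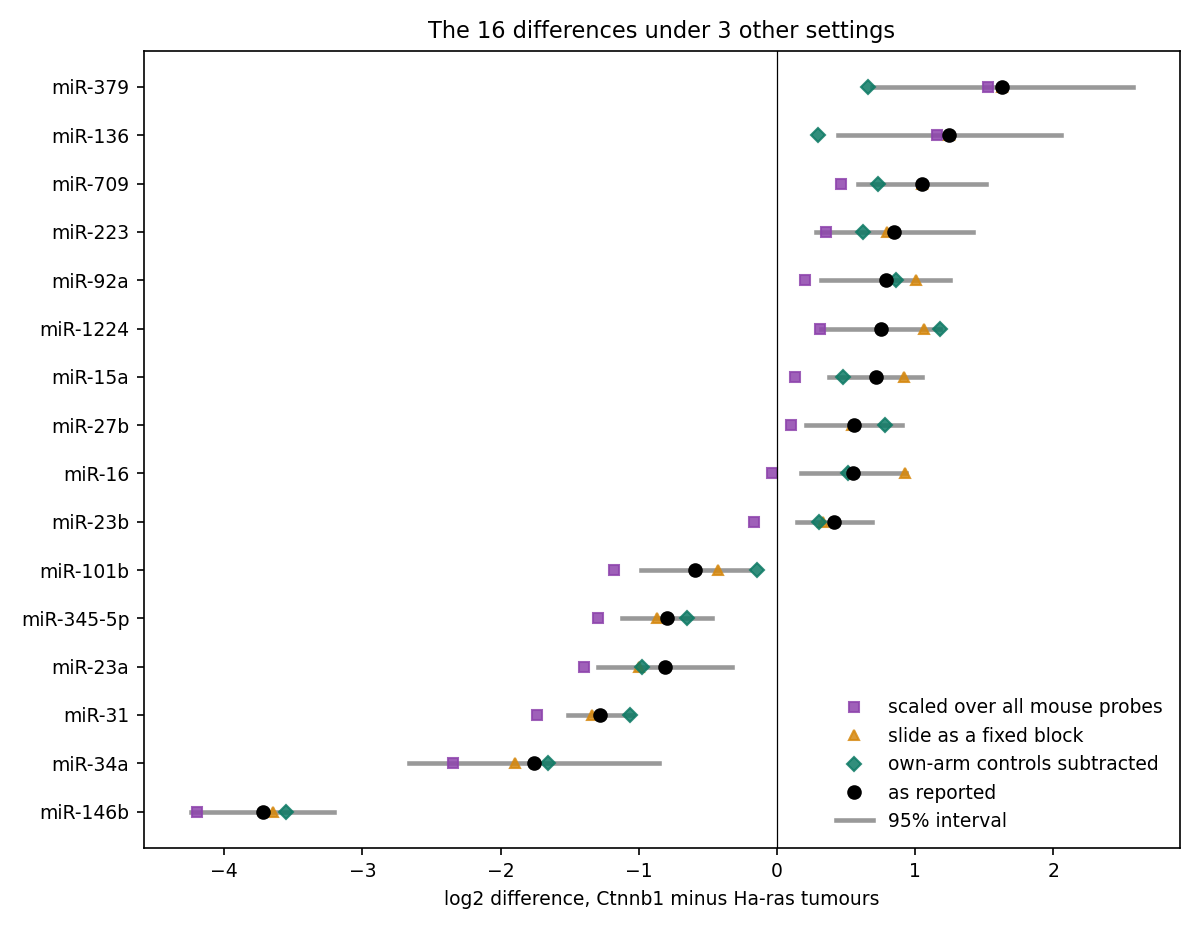
Log2 differences of the 16 miRNAs that passed, Ctnnb1 minus Ha-ras tumours, as reported (black, with the 95% interval in grey) and under 3 other settings. All differences keep their sign with the slide as a block and with own-arm controls subtracted, and miR-23b and miR-16 turn to -0.17 and -0.03 when every mouse probe is used for the scaling. A slide-block marker that is hidden lies under the black point, as for miR-379 and miR-136.

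The arrays hold no messenger RNA, so neither genotype could be checked against its target genes, and the labels do not say whether the tumours came from separate animals. The p-values measure only the spread between these samples. Where all tumours of a group lie at the floor, as for miR-146b, miR-379 and miR-136, that group's SD of 0 is set by the floor. The SE and p-value of such a miRNA hold no measured spread of that group.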

How the data were processed

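Total RNA (25 ng) was labelled with pCp-Cy3 and hybridised to an Agilent miRNA array per the labels' protocols. The deposited intensity values are spot signals from Feature Extraction 10.7.3.1, background-subtracted by the software and not scaled between arrays, per the file headers. The authors' deposited log2 table, for which no source used here gives the normalisation, served as an alternative. The submitters' processing notes name R 2.14.1.

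Control spots and outlier spots were dropped and spots of a probe averaged. Signals were scaled to the 75th percentile of the 120 mouse probes that all 10 tumour arrays detected, raised to a floor of 27.05 and taken to log2, and the probes of a miRNA were averaged. Between 35.9% and 45.7% of an array's spot signals were at or below 0, and spots of a probe varied by a median of 6.18% to 8.97%. The 89 miRNAs detected on all arrays of 1 or both groups were fitted with limma 3.58.1 (R 4.3.3; lmFit and eBayes on 10 arrays) with Benjamini-Hochberg adjustment and a threshold of 0.05. The script was tested on simulated data.

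Where no array of 1 group detected a miRNA, a bound is given, the mean of the other group over a mean for the group without detection. The latter takes each array's lowest detected signal or, where higher, the miRNA's own level, which is never below the floor. Adjusted p-values test the fitted difference and not the bound. Named miRNAs are those that passed, up to 3 of smallest p in each list, the 10 of highest mean level and the cell type markers. The members and lists were chosen with earlier results of these data known. RefSeq held 20 of the 22 mature sequences looked for. Older array names were matched to RefSeq arms by hand.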

Additional observations from a re-analysis of the deposited data

Results flagged for a closer look

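In 6 of 64 miRNAs looked at, 1 Ctnnb1 tumour stood apart from the other 6 by Dixon's test, which flags about 1 in 20 groups by chance. Replicate 5 accounted for 4 of these. It was lowest for let-7a at 9.61 (the others 10.25 to 10.56), for let-7f at 9.56 (10.58 to 10.89) and for miR-365 at 5.48 (6.91 to 7.76), and highest for miR-22 at 12.49 (11.66 to 11.96). Replicate 2 was highest for miR-23b at 8.45 (8.01 to 8.16). Replicate 1 was highest for miR-31 at 4.94, where the other 6 were tied at the floor of 4.76, so that any value above the floor would have stood apart.

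For miR-146b and miR-31 the tumour against own-arm control difference was not the same in the 2 arms by a test of the difference itself. It was -3.55 for miR-146b (SE 0.32, adjusted p = 9.92e-07) and -1.06 for miR-31 (SE 0.16, adjusted p = 0.000485). In the phenobarbital arm all values of miR-146b and most of miR-31 lay at the floor.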

How the results depend on the processing

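Of 31 alternatives, miR-146b and miR-31 passed in all 30 that tested them, and no other miRNA did so. These include the fits without 1 Ctnnb1 tumour, where the floor kept the difference of miR-146b at -3.72. The count of 16 (10 higher, 6 lower) became 22 (2, 20) with scaling over all mouse probes, whose 75th percentile lies among undetected probes. With that scaling miR-23b was -0.17 and miR-16 -0.033. The count became 19 (7, 12) with quantile scaling, and 20 (10, 10) with the deposited values, where miR-301a was -0.81 (adjusted p = 0.0157). It was 20 (14, 6) with arrays scaled on their detected probes' median, 15 (8, 7) over probes detected on all 16 arrays and 17 (12, 5) with normexp. It was 27 (17, 10) with the floor at 0.5 times, 30 (18, 12) with all 16 arrays in the fit, 26 (17, 9) with the brightest probe only, an alternative chosen after seeing the data, and 11 (6, 5) with trend and robust. Fewer passed with only the 75 miRNAs detected on all 10 arrays (7: 5, 2), with all 146 detected on any (7: 4, 3), with the slide as a block in 10 arrays (3: 0, 3) or 16 arrays (6: 2, 4), within slide 1 (5: 2, 3) and with own-arm controls subtracted (2: 0, 2). Leaving out 1 array gave 2 to 23 calls, 0 to 15 higher and 2 to 11 lower; the 11 were without Ctnnb1 replicate 5. Of the named miRNAs that did not pass, 25 changed sign in 1 or more alternatives without a call. The cause of these changes was not tested.

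Whether the shared replicate numbers pair the samples cannot be told from so few pairs. Deviations of same-numbered tumours correlated at -0.04, 0.24 and -0.17, and those of differently numbered tumours at -0.30 to 0.40. With the replicate block 3 miRNAs passed (0 higher, 3 lower): miR-146b, miR-31 and miR-34a. Only the Ctnnb1 tumours whose number a Ha-ras tumour shares inform the difference in that fit. For miRNAs at or near the floor in a group, the size of a difference and its p-value depend on the floor. Signal there is not well above background.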

Other observations

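Besides miR-146b, 4 miRNAs were detected on a Ha-ras tumour and on no Ctnnb1 tumour: miR-31* and miR-183 on 2 arrays each, miR-200a and miR-29c* on 1 each. Among the 21 miRNAs outside the Dlk1-Dio3 region that were detected on a Ctnnb1 and no Ha-ras tumour, the most widely detected was miR-680, on 6 of 7 Ctnnb1 tumours and on no control. miR-338-3p was detected on 4 Ctnnb1 tumours, on no Ha-ras tumour and on all 3 controls of each arm. miR-135a* was detected on 4 Ctnnb1 tumours, and miR-142-5p, miR-188-5p, miR-669a, miR-671-5p and miR-877 on 3 each. These miRNAs were named after their values were seen, and none was among those tested.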
